A study of Homo sapiens with 2 samples.

Results

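The regions described here are the promoter peaks of pseudogenes in PLC8024, a human line grown from liver cancer. They were the peaks annotated by the authors as promoter and assigned to a nearest gene of the pseudogene type. The drug list held 169 of them at 161 pseudogenes, which was 2.02% of its 8381 promoter peaks and part of 29283 peaks in all. The control list held 183 at 176 pseudogenes, which was 1.86% of its 9863 promoter peaks and part of 49854 peaks in all. The peaks came from CUT&Tag, in which an antibody bound in permeable nuclei steers a transposase to the chromatin around its target. There was 1 library of PLC8024 cells exposed for 6 hours to a drug at 10 nM, and 1 library of PLC8024 cells labelled as control. Drug and antibody are not named in the labels, and the series title concerns target genes of KIF11, a motor protein of the mitotic spindle. With 1 library per group, no difference between drug and control could be set against replicate spread, and the depth of both libraries was unknown.

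Pseudogenes are copies of genes that have lost the ability to make the full protein of their parent. Processed pseudogenes arise when a messenger RNA is copied back into DNA, and they usually land without the promoter of the parent. Unprocessed pseudogenes arise by duplication of a stretch of the genome and can carry the parent's promoter with them, so some are still transcribed. Many lie in segmental duplications, long blocks of nearly identical sequence, where a short read can match several copies. RefSeq listed the gene as a transcribed pseudogene for 165 of the 169 drug peaks and for 181 of the 183 control peaks. The remaining 4 drug peaks and 2 control peaks belonged to genes that RefSeq lists as protein coding. RefSeq holds 1268 transcribed pseudogenes and 15614 other ones, and no peak here belonged to the latter. Whether the authors' annotation could assign a promoter to those others was not tested, so no preference of the peaks is read from these counts. The annotated transcript was a coding one for 13 drug peaks and 18 control peaks, although the gene was typed as a pseudogene. The type of the gene thus held for nearly all of these peaks, while not every peak was annotated to a transcript of the pseudogene itself.

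Promoter sequences were at hand for the coding genes that share a promoter with a pseudogene, and for coding or non-coding copies of one. The first set below is shown because each window lies under one of the strongest pseudogene peaks and belongs to a coding neighbour. TTC41P, a tetratricopeptide repeat pseudogene, shared its peak with the start of HSP90B1, the endoplasmic reticulum chaperone GRP94 (chr12:103930160-103930459, plus strand). FAM185BP shared its peak with CCDC146, which encodes a protein of centrioles and sperm flagella (chr7:77122365-77122664, plus strand). CUTALP shared its peak with PSMD5, a proteasome assembly chaperone (chr9:120842873-120843172, minus strand). Each window is the RefSeq promoter on GRCh38.p14, the same build as the files, and holds 250 bases before and 50 after the gene's start. Capitals mark CCAAT and GGGCGG boxes on either strand and, in HSP90B1, the CCACG end of an endoplasmic reticulum stress element.
HSP90B1: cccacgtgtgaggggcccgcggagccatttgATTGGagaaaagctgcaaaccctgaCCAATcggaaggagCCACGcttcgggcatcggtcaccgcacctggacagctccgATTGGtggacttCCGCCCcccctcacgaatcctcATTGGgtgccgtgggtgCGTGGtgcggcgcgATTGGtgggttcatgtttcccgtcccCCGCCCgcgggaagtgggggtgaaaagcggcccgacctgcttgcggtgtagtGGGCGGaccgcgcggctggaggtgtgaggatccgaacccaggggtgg
CCDC146: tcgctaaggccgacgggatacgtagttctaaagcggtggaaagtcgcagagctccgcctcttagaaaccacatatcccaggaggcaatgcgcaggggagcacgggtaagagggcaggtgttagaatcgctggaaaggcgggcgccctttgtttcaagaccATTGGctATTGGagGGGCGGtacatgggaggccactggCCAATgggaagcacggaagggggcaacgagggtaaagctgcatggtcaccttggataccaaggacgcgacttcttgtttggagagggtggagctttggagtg
PSMD5: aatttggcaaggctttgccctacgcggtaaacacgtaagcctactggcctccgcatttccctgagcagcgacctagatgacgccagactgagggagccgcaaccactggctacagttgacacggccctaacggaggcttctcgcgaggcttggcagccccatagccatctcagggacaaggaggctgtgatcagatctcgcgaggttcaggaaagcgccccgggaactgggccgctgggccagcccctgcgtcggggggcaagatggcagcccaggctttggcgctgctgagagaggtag
The HSP90B1 window held 5 CCAAT boxes, the site of the factor NF-Y, and 3 GGGCGG boxes, the site of Sp1. Across 34943 promoter windows of the same length, 34.6% held CCAAT and 44.9% held GGGCGG on either strand. The stress element, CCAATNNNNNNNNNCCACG, occurred at 2 places in HSP90B1, each overlapping one of its CCAAT boxes, and in 27 of all the windows, or 0.0773%. The PSMD5 window held no CCAAT and no GGGCGG on either strand.

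The next windows show how alike the copies are. RPL23AP82 and RPL23AP7, copies of the ribosomal protein gene RPL23A, lie back to back with RABL2B (chr22:50783587-50783886, minus strand) and RABL2A (chr2:113627016-113627315, plus strand), a pair of duplicated genes for a small GTPase of cilia. SRGAP2B (chr1:145095279-145095578, minus strand) and SRGAP2C (chr1:121184725-121185024, plus strand) are copies of SRGAP2 made in the same human lineage as the pseudogene SRGAP2D, whose peak was the strongest of all pseudogene promoter peaks in both lists. Capitals mark CCAAT and GGGCGG on either strand.
RABL2B: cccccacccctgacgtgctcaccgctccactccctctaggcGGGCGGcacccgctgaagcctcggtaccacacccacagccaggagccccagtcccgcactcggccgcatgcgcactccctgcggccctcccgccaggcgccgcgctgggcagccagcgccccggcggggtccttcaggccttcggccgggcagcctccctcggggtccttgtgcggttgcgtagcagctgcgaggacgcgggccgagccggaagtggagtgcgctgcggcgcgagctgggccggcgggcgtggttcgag
RABL2A: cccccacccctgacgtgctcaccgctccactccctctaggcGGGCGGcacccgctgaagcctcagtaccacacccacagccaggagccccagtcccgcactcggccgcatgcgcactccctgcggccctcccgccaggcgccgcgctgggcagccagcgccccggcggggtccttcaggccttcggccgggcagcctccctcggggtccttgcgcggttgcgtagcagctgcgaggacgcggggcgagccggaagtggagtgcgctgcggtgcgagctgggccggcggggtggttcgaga
SRGAP2B: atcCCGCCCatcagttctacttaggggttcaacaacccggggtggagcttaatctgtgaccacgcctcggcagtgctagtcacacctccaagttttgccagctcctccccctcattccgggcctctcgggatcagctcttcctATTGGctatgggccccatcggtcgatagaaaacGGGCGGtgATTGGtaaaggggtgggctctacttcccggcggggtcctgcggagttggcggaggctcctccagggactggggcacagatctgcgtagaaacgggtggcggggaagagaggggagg
SRGAP2C: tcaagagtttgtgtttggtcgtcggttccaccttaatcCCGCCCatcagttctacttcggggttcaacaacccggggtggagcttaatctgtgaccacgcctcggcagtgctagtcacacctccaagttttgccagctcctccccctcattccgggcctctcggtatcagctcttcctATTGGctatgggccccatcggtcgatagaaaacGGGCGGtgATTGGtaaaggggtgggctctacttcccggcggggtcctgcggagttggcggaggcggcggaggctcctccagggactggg
The RABL2B and RABL2A windows were identical at 295 of 300 aligned positions, or 98.3%. The SRGAP2B and SRGAP2C windows, whose annotated starts are offset, were identical at 254 of 265 aligned positions, or 95.8%. Where copies are this alike, the authors' counting could split reads between them, so the scores of such copies are reported as uncertain, and read placement was not tested.

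The first comparison asked how many pseudogene promoters were marked in both lists. A peak counted as overlapped when at least 1 bp was shared with any peak of the other list. Of the 169 drug peaks, 159 were overlapped by a control peak, or 94.1% (exact Clopper-Pearson 95% interval 89.4 to 97.1). Over drug promoter peaks of all gene types the share was 97.6%, and over protein-coding ones it was 98.1% (97.8 to 98.4). Of the 183 control peaks, 134 were overlapped by a drug peak, or 73.2% (66.2 to 79.5), where the share over all control promoter peaks was 74.4% and over protein-coding ones 75.8% (74.9 to 76.7). Control promoter peaks of non-coding RNA genes were overlapped at 60.3% (57.0 to 63.6). In these counts the pseudogene promoters of the control list lay near the background of their list. Intervals here and below cover counting error only.

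By gene name, 219 pseudogenes had a promoter peak in either list and 118 in both. The drug list named 43 that the control list did not, yet 35 of these had a control peak at the same position, so 8 were left without one. The control list named 58 that the drug list did not, and 16 of these had a drug peak at the same position, which left 42. A single site could thus change name or class between the lists. H3F3AP4, a copy of the histone H3.3 gene, was named in the drug list with a score of 26, while the control peak over it scored 252 and carried the name of the parent, H3F3A. At a site on chromosome 7 the drug peak was named PMS2P7, after a mismatch repair gene, with a score of 495, and the control peak STAG3L3, after a cohesin gene of meiosis, with a score of 1099.

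Pseudogene promoter peaks had lower median scores than coding ones in both lists. The score is the authors' own whole number, in the usual MACS2 output −log10 of the q-value multiplied by 10, and it describes a peak within its list. The median score was 116 for pseudogenes against 139 for protein-coding genes in the drug list, and 237 against 343 in the control list. In drug the lower quartile was 53.0 against 72.0, but the upper quartile was higher for pseudogenes, at 286 against 261. In control both quartiles were lower for pseudogenes, at 91.0 against 138 and 594 against 735. The median width was 373 bp against 440 bp in drug, and 523 bp against 613 bp in control. Peaks at the smallest width, 200 bp, made up 16.6% of pseudogene peaks in drug and 4.37% in control. Over all promoter peaks they made up 8.73% in drug and 3.83% in control, and over non-coding RNA ones 13.3% in drug and 7.35% in control. The centre lay within 100 bp of the annotated start for 112 drug peaks (66.3%) and 118 control peaks (64.5%), and over all promoter peaks for 59.0% in drug and 57.0% in control.

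Overlap followed the control score, so peaks were also set side by side in 10 bins of control score. In the weakest bin 2 of 25 pseudogene peaks were overlapped by a drug peak, against 11.1% of protein-coding peaks. In the second bin the shares were 39.3% of 28 pseudogene peaks (21.5 to 59.4) and 24.8% of coding peaks (21.9 to 27.9). In the third bin they were 68.2% of 22 (45.1 to 86.1) and 48.0% (44.6 to 51.5), and in the fourth 93.3% of 15 (68.1 to 99.8) and 71.8% (68.7 to 74.8). From the sixth bin on, every pseudogene peak was overlapped, as were at least 98.1% of coding peaks in each bin. With coding peaks weighted to the control scores of the pseudogenes, the expected share was 66.5%, so the pseudogene share of 73.2% was 6.69 points above it (normal 95% interval 2.45 to 10.9). Against non-coding RNA promoters the difference was 7.81 points (3.13 to 12.5). Without the weighting the difference from coding promoters was −2.62 points (−9.10 to 3.86).

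**Figure D1:**
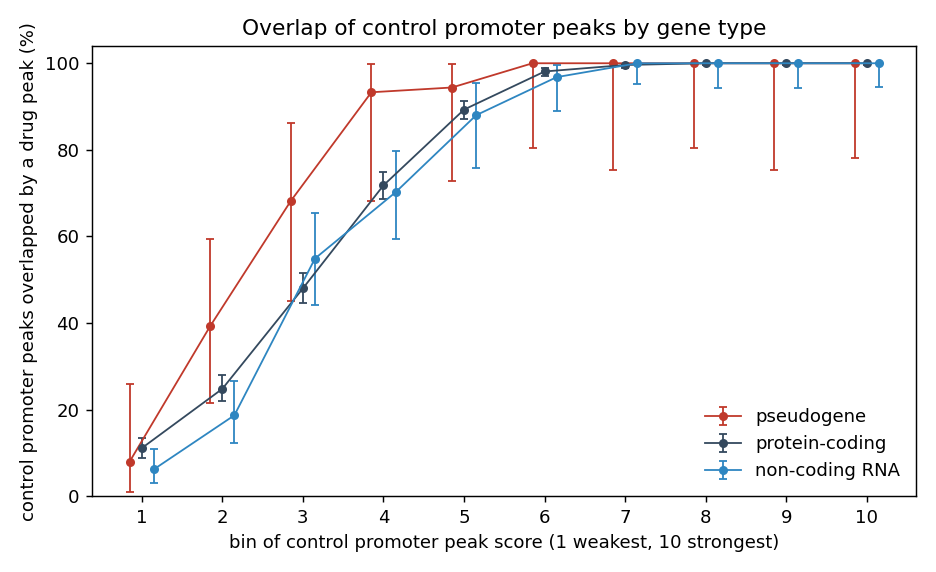
Share of control promoter peaks overlapped by a drug peak (%, vertical axis) in 10 bins of control peak score (horizontal axis, weakest to strongest), for pseudogenes, protein-coding genes and non-coding RNA genes, with exact 95% intervals. In bins 2 to 4 the pseudogene share lies above the coding share, and from bin 6 on it is 100%.

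Segmental duplications are dense on chromosomes 7, 15 and 16, and these held 64 of the drug pseudogene peaks, or 37.9% (30.5 to 45.6), against 12.4% of the drug protein-coding promoter peaks. They held 63 of the control pseudogene peaks, or 34.4% (27.6 to 41.8), against 12.6% of the coding ones. These were also the chromosomes with the most pseudogene peaks in both lists, and the intervals do not allow for that choice. The share of all annotated transcribed pseudogenes that lies on them was not counted, and a link to duplications was not tested. Chromosome 15 alone held 22 drug pseudogene peaks (13.0%, coding 3.34%) and 24 control ones (13.1%, coding 3.41%).

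**Figure D2:**
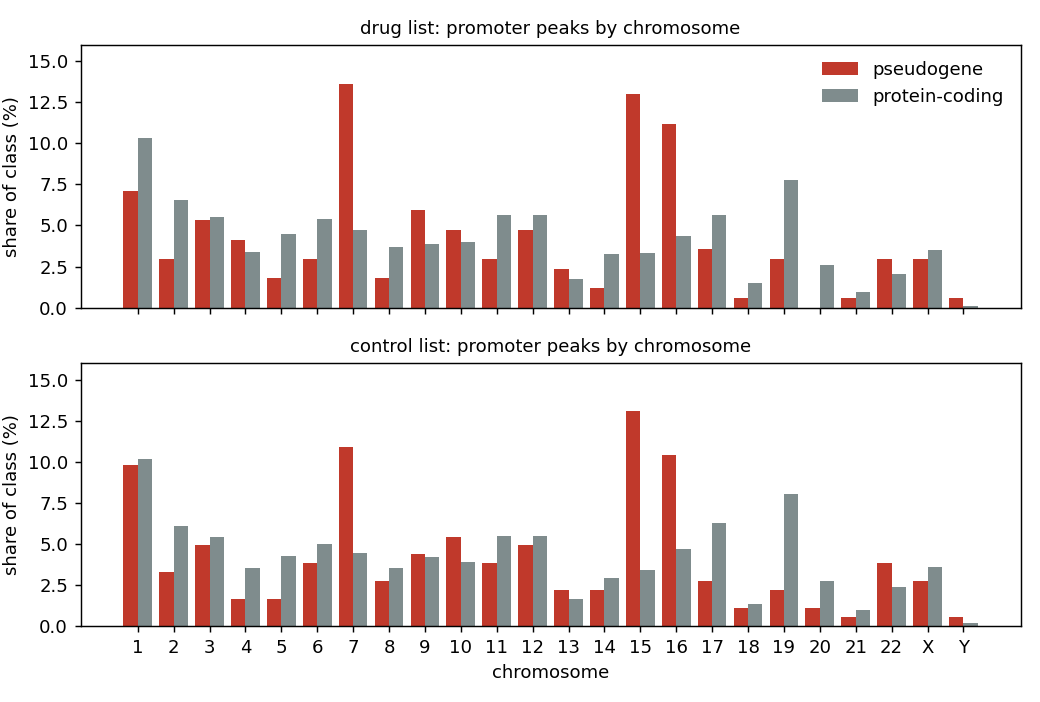
Share of pseudogene and of protein-coding promoter peaks on each chromosome (%, bars from 0), drug list above and control list below. The bars of chromosomes 7, 15 and 16 stand above the coding bars in both panels.

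The strongest pseudogene promoter was SRGAP2D, a copy of the neuronal gene SRGAP2, with a score of 2014 in drug and 3336 in control (chr1:143971946-143973284 in the control list). The centre of this peak lay 618 bp in drug and 629 bp in control away from the start of the coding gene FAM72C, so the score cannot be given to the pseudogene alone. It ranked 8th among all drug promoter peaks and 27th among all control promoter peaks. Its copies named above were also marked, with scores of 2049 in drug and 3192 in control at SRGAP2B, and 639 in drug and 1434 in control at SRGAP2C. TTC41P at the HSP90B1 start was second in drug with 990, and it scored 2471 in control, where FAM86FP and FAM86C2P also stood above it. LOC285074, a copy of the anaphase promoting complex subunit ANAPC1, scored 760 in drug and 2039 in control, where its parent scored 77 in drug and 277 in control. FAM185BP at the CCDC146 start scored 571 in drug and 2046 in control, and CUTALP at the PSMD5 start 544 in drug and 1534 in control. FRG1HP, a copy of the facioscapulohumeral dystrophy region gene FRG1, scored 369 in drug and 1482 in control. MSTO2P, a copy of the mitochondrial gene MSTO1, scored 417 in drug and 1479 in control. PIN4P1, a copy of a prolyl isomerase gene, had a peak with the same limits in both lists, chr15:43878100-43878336, which scored 571 in drug and 1400 in control. NSUN5P2, a copy of an RNA methyltransferase gene, scored 599 in drug, and the control peak over it scored 1428 but was annotated to an intron of NSUN5P2. STAG3L5P scored 1840 in control, and the drug peak over it scored 959 and was annotated to an exon of the non-coding transcript. The 12 strongest of the control list and the 12 strongest of the drug list all lay at sites with a peak in both lists. The same held for every promoter peak of such scores. The highest score of any promoter peak without a partner was 99 in drug and 505 in control.

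Several families of copies stood out by their number of promoter peaks. They were grouped by symbol and description after the values had been seen. The 14 families with at least 3 pseudogenes held 47 drug peaks (27.8%), of which 47 were overlapped by a control peak, and 44 control peaks (24.0%), of which 36 were overlapped by a drug peak, or 81.8% (67.3 to 91.8). The remaining control pseudogene peaks were overlapped in 98 of 139 cases, or 70.5% (62.2 to 77.9), and the intervals of these shares overlap. Over promoter peaks of all gene types the share was 97.6% in drug and 74.4% in control.

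The FAM86 copies, derived from a gene for the methyltransferase of elongation factor 2, had 5 pseudogene peaks in each list, all at shared sites. Over all promoter peaks 97.6% of the drug list and 74.4% of the control list were overlapped. Their scores were 878 in drug and 2653 in control at FAM86FP, 831 in drug and 2543 in control at FAM86C2P, and 722 in drug and 1508 in control at FAM86JP. FAM86EP scored 580 in drug and 1591 in control, and FAM86B3P 469 in drug and 947 in control. The order of the copies was nearly the same in both lists, with FAM86EP and FAM86JP exchanged. Every FAM86 peak stood above the median pseudogene peak of its list.

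The STAG3L copies on chromosome 7, derived from a cohesin gene of meiosis, had 3 peaks in drug, scored 65 to 339, and 5 in control, scored 763 to 1840. These ranges do not cover the same sites. The strongest drug peaks over the 5 control peaks scored 339 to 959. The drug peaks of 65 at STAG3L2 and 146 at STAG3L3 lay at sites whose strongest drug peak carried a PMS2P name. The PMS2P copies had 4 in drug, scored 210 to 495, and 1 in control, scored 817, since the control peaks over the others carried STAG3L names. The SEPTIN7P copies, derived from a gene of the septin cytoskeleton, had 5 peaks in each list, scored 50 to 387 in drug and 306 to 1213 in control. The drug peak of 50, at LOC645513, and a stronger one of 196 lay under the same control peak of 503. The SDHAP copies, derived from the flavoprotein subunit of succinate dehydrogenase, scored 106 to 135 at 4 peaks in drug and 99 to 646 at 3 peaks in control. The SMG1P copies, derived from a kinase of nonsense-mediated decay, scored 78 to 128 at 3 peaks in drug and 106 to 1018 at 3 peaks in control. Again not all of these were the same sites. The drug peak over the control peak of 1018 at SMG1P2 scored 489. The control peaks over the drug peaks of 128 at SMG1P2 and 78 at SMG1P5 scored 573 and 794. The BMS1P copies, derived from a ribosome biogenesis gene, had 2 peaks in drug and 4 in control, and only 1 of those in control, at BMS1P4-AGAP5, was overlapped. The others scored 100, 67 and 48. Among coding promoter peaks with control scores of 14 to 59, 11.1% were overlapped, and with scores of 60 to 100, 24.8%.

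The HERC2P copies, derived from a large E3 ubiquitin ligase, had 5 peaks in drug, all overlapped by a control peak, and 6 in control, of which 4 were overlapped by a drug peak. The shares over all promoter peaks were 97.6% in drug and 74.4% in control. Scores were of similar size in both lists at most of the shared sites. LOC102723534, described as a HERC2 pseudogene, scored 504 in drug and 464 in control. HERC2P3 scored 413 in drug and 398 in control, and HERC2P11 406 in drug and 485 in control. The drug peak at HERC2P2 scored 317, and the control peak over it scored 236 and was named HERC2. HERC2P4 on chromosome 16 scored 198 in drug, and the control peak over it, named LOC102723753, scored 719. The control peaks at HERC2P9, with a score of 88, and at a second HERC2P2 site, with 47, had no drug peak. The strongest promoter peak named after the parent HERC2 scored 434 in drug and 329 in control, and its position was not checked. For comparison, the median over shared pseudogene promoters was 134 in drug and 354 in control.

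The golgin copies on chromosome 15, derived from the Golgi matrix gene GOLGA2, also had scores of similar size in both lists. LOC101929479 scored 585 in drug and 556 in control, and GOLGA2P10 scored 497 in drug and 689 in control. GOLGA2P7 scored 462 in drug, and the control peak over it scored 429 and was annotated to LOC102724135. The double homeobox copies DUXAP10, DUXAP9 and DUXAP8 scored 248, 234 and 231 in drug, and 335, 267 and 408 in control. No DUXA promoter peak was listed in drug or in control.

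**Figure D3:**
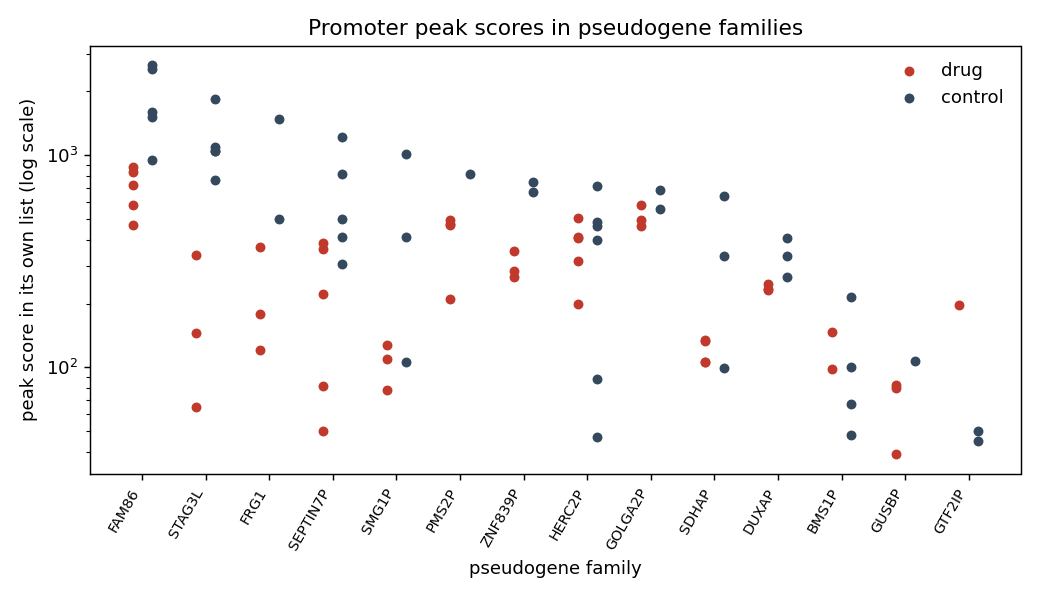
Scores of promoter peaks (log axis) in pseudogene families with at least 3 pseudogenes, drug left of control in each family, 1 point per peak. The FAM86 points of control lie at 947 to 2653, above those of drug at 469 to 878, while the points of HERC2P, GOLGA2P and DUXAP overlap or lie close together between the lists.

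Families known for many processed pseudogenes had few promoter peaks or none. Nearly all peaks here lay at genes listed as transcribed pseudogenes, and none lay at the other pseudogenes of RefSeq. How many copies of each family could be annotated with a promoter was not counted, so the low counts are not read as a lack of marking. Ribosomal protein pseudogenes had 3 promoter peaks in drug, at RPL23AP7, RPL32P3 and RPL13P5, and 3 in control, at RPL23AP82, RPL32P3 and RPL13P5. RPL32P3 scored 71 in drug and 169 in control, and RPL13P5 scored 42 in drug and 111 in control. RPL23AP82, which shares its start with RABL2B, scored 814 in control, and the drug peak over it scored 181 and was named RABL2B. RPL23AP7, which shares its start with RABL2A, scored 163 in drug, and the control peak over it scored 620 and was named RABL2A. These lists were made from symbol stems alone, so copies with other symbols fall outside them. The stems for translation factors, glycolytic enzymes, copies of the mitochondrial genome, respiratory chain subunits of the COX, NDUF, UQCR and ATP5 type, HLA and immune receptor genes and olfactory receptors matched 0 promoter peaks in drug and 0 in control. The respiratory stems do not cover SDHA, the mitochondrial ribosome or other mitochondrial genes, and the SDHAP copies, MSTO2P and MRPS31P5 had promoter peaks. The chaperone stems matched only CCT6P3, a copy of a chaperonin subunit gene, with 292 in drug and 607 in control. The stems for actin, tubulin, keratin, thymosin and cofilin matched 0 peaks in drug and 1 in control, at the tubulin pseudogene TUBBP5, with a score of 56. They do not cover septins or the tropomyosin copy TPM3P9, which scored 190 in drug. Among nuclear protein pseudogenes, the histone H2B copy HIST2H2BB scored 50 in drug and 265 in control. The ubiquitin list held 2 peaks in each, at UBE2Q2P2 with 505 in drug and 678 in control and at UBE2MP1 with 26 in drug and 116 in control. The zinc finger stems matched 10 peaks in drug, of which 10 were overlapped, and 11 in control, of which 8 were overlapped. Grouped by symbol and description, zinc finger pseudogenes had 12 peaks in drug, of which 11 were overlapped. In control they had 11, of which 9 were overlapped. ZNF271P, next to ZSCAN30, was the strongest of them, with 238 in drug and 773 in control. ZNF815P scored 118 in drug and 371 in control, and ZNF767P 110 in drug and 351 in control. The list of segmental duplication families had 37 peaks in drug, of which 36 were overlapped, and 39 in control, of which 28 were overlapped. Over all promoter peaks the overlapped share was 97.6% in drug and 74.4% in control, so the counts of these last lists lie near the background.

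A pseudogene symbol could be paired with a coding parent by its letters for 80 pseudogenes of the drug list and 82 of the control list. The pairs held 64 different parents in drug and 67 in control. Some parents were thus counted more than once, which the intervals below do not allow for. The share of all coding genes with a promoter peak was not set beside these shares. In the drug list a promoter peak under the parent's symbol was listed in 46 of 80 pairs, or 57.5% (45.9 to 68.5). The parent scored higher than the pseudogene in 28 of these. In the control list such a peak was listed in 53 of 82 pairs, or 64.6% (53.3 to 74.9), and the parent scored higher in 36. These counts depend on naming, so a parent without such a peak could still be marked. GOLGA2 had none in drug, although a drug peak overlapped the control promoter peak named GOLGA2, which scored 983. The parent of H3F3AP4 was sought under a symbol other than H3F3A, the name on the control peak there. TTLL13P, which RefSeq lists as protein coding, was paired with TTLL13, which had no such peak in either list. Where the parent had a promoter peak under its symbol, the pseudogene outscored it in 18 pairs of the drug list and 17 of the control list. Among these, PIN4P1 outscored PIN4, which had 241 in drug and 657 in control. EP400P1, a copy of a chromatin remodeller gene, scored 423 in drug and 914 in control, while EP400 scored 72 in drug and 525 in control. HSD17B7P2, a copy of a cholesterol synthesis gene, scored 387 in drug against 566 for HSD17B7, and 1053 in control, where HSD17B7 had no promoter peak under its name. SMG1P2 in control scored 1018 against 954 for SMG1. RNF138P1, a copy of a ubiquitin ligase gene, scored 932 in control against 1600 for RNF138. The drug peak over the RNF138P1 site scored 193 and was named PLPP1, a lipid phosphatase gene.

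Some pseudogene peaks lay at the start of a coding gene. With a window of 1 kb around known coding starts, 20 of 169 drug peaks did so, or 11.8% (7.38 to 17.7), and 19 of 183 control peaks, or 10.4% (6.37 to 15.7). The same held for 45.9% of non-coding RNA promoter peaks in drug and 37.7% in control. For coding promoter peaks and another coding gene the shares were 14.7% in drug and 13.9% in control. Start sites were at hand for 15843 of 20056 coding genes, so these shares are lower bounds.  In the control list 73.7% of peaks at a coding start (48.8 to 90.9) and 73.2% of those away from one (65.7 to 79.8) were overlapped by a drug peak. Their median scores in drug were 202 at a coding start and 110 away from one, and in control 550 at a coding start and 227 away from one.

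Named partners at shared starts, chosen after their values were seen, came from varied pathways. SEC1P, next to the clock output gene DBP, scored 500 in drug and 1247 in control. ABCA17P, next to the surfactant lipid transporter ABCA3, scored 182 in drug and 550 in control. FABP5P3, next to the histone methyltransferase KMT2C, scored 88 in drug and 220 in control. CIDECP1, next to the DNA crosslink repair gene FANCD2, scored 237 in control, and the drug peak over it scored 33 and was named FANCD2. COL6A4P1, next to the calpain CAPN7, scored 219 in drug, and the control peak over it scored 431 and was named CAPN7. DUSP5P1 scored 289 in drug and 188 in control, and the centre of its peak lay 259 bp in drug and 288 bp in control from the start of RHOU.

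**Figure D4:**
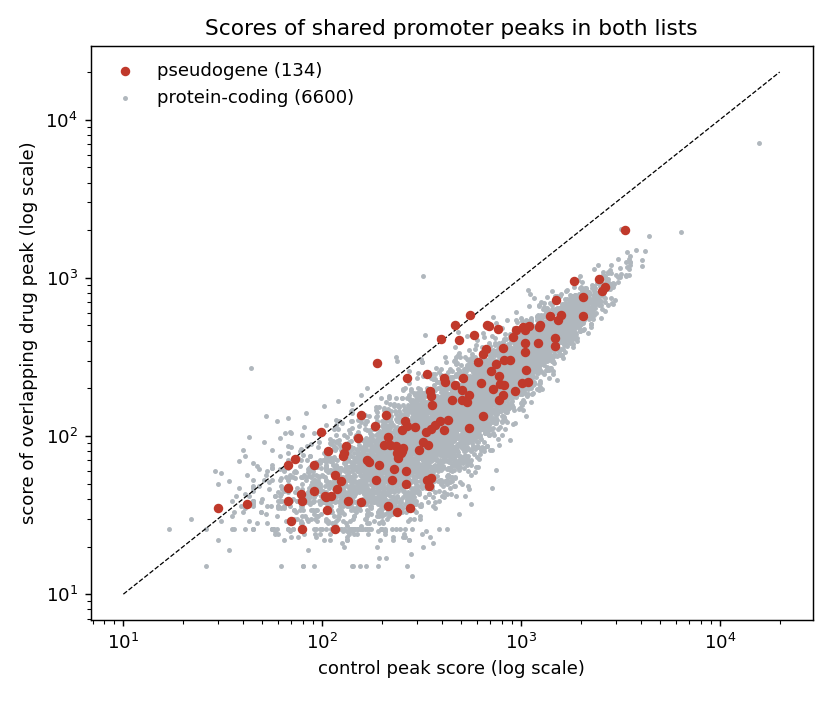
Score of the drug peak (vertical, log axis) against the score of the control peak it overlaps (horizontal, log axis) for 134 pseudogene and 6600 protein-coding control promoter peaks, with the line of equal scores dashed. Most points of both classes lie below the line, and 6 pseudogene points lie above it.

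Since scores are not comparable between lists, the 7335 control promoter peaks with a drug peak were ranked in each list and each was given a percentile of its drug score and of its control score. This comparison was chosen with the data already seen. Of the 134 pseudogene pairs, 24 ranked at least 20 percentile points higher in drug than in control, or 17.9% (11.8 to 25.5). Over all shared promoter peaks the share was 6.41%, over protein-coding ones it was 5.80% (383 of 6600), and over non-coding RNA ones 7.35%. At least 20 points lower in drug were 4 pseudogene pairs, or 2.99%, where the share over all shared promoter peaks was 5.79%. Pseudogene peaks had lower control percentiles than coding ones, with medians of 36.1 and 50.5. With coding peaks weighted to the same bins of control score, 7.02% would be at least 20 points higher, so the pseudogene share lay 10.9 points above it (normal 95% interval 4.87 to 16.9). The median difference of percentiles, drug minus control, was 4.25 for pseudogenes and −0.504 for coding genes. A drug score above the control score occurred in 6 of 134 pseudogene pairs (4.48%) and in 67 of 6600 coding pairs (1.02%).

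The pairs that ranked higher in drug were led by DUSP5P1, a copy of a phosphatase gene that acts on ERK, at percentile 76.9 in drug and 15.1 in control. This site lies at the start of the coding gene RHOU, so its rank cannot be given to the pseudogene alone. HERC2P3 stood at 88.1 in drug and 41.1 in control, LOC102723534 at 92.7 in drug and 47.6 in control, and HERC2P11 at 87.6 in drug and 49.6 in control. LOC101929479 stood at 94.9 in drug and 55.1 in control. All 3 double homeobox copies were among them, DUXAP9 at 68.5 in drug and 25.4 in control, DUXAP10 at 71.0 in drug and 34.1 in control, and DUXAP8 at 67.9 in drug and 42.1 in control. SDHAP2 stood at 37.2 in drug and 4.58 in control, with scores of 106 in drug and 99 in control. RRN3P3, a copy of an RNA polymerase I initiation factor gene, stood at 89.4 in drug and 57.2 in control. GBAP1, a copy of the glucocerebrosidase gene, stood at 46.4 in drug and 18.1 in control. The last inside the limit was PPIP5K1P1-CATSPER2 at 20.2 points and the first outside it PDXDC2P-NPIPB14P at 19.8. The 4 that ranked lower by at least 20 points were MIPEPP3, LOC554206, ZNF252P and LOC400464, and MIPEPP3, a copy of a mitochondrial peptidase gene, scored 48 in drug and 344 in control.

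**Figure D5:**
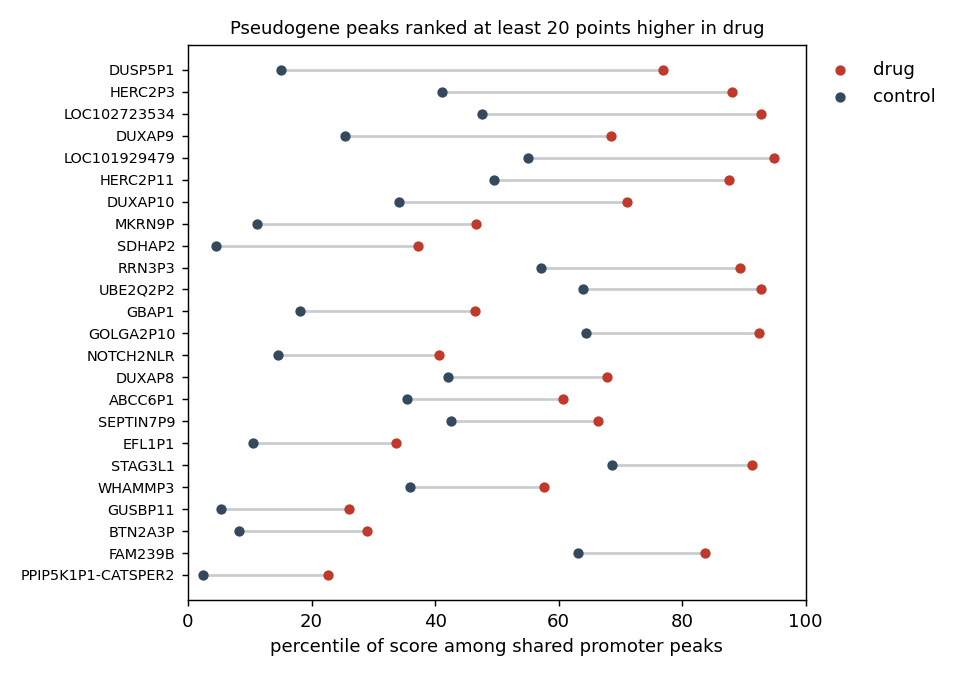
Percentile of the score among 7335 shared promoter peaks (horizontal axis) in drug and in control for the 24 pseudogenes at least 20 points higher in drug, 1 row each with the largest difference at the top. DUSP5P1 is at the top, and copies of HERC2, GOLGA2 and DUXA take up much of the upper rows.

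These pairs were unevenly spread over chromosomes and families. Chromosome 15 held 9 of the 24, among its 18 pseudogene pairs (95% interval of the share 26.0% to 74.0%), while 11 of 213 coding pairs on chromosome 15, or 5.16%, ranked at least 20 points higher. Coding pairs within 1 Mb of a pseudogene promoter peak did so in 59 of 1062 cases, or 5.56%. Families of at least 3 copies held 13 of the 24 among 36 pairs, or 36.1% (20.8 to 53.8), and the pseudogenes outside them 11 of 98, or 11.2% (5.74 to 19.2). Chromosome 15, which held the most of the 24, was set apart after the values were seen, and its interval does not allow for that choice. Without that chromosome the share over pseudogene pairs was 12.9% (7.42 to 20.4). Members of a family share their origin and are not independent, and the part of read placement in this result was not tested.

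The parents of the pseudogenes that ranked higher in drug gave mixed values. For 12 of the 24, a peak named after the parent was among the shared promoter peaks, 9 parents in all. Parents were found by name and their positions were not checked, and the control peak over HERC2P2 also carried the name HERC2. Of the 9 parents, 3 also ranked at least 20 points higher in drug, where the share over all shared promoter peaks was 6.41%. They were HERC2 at 89.4 in drug and 33.4 in control, DUSP5 at 57.0 in drug and 19.1 in control, and the transporter ABCC6 at 44.1 in drug and 10.6 in control. RRN3 stood at 68.3 in drug and 57.7 in control, and GOLGA2 at 83.0 in drug and 78.5 in control. ZNF839 stood at 41.6 in drug and 24.7 in control. SDHA stood lower in drug, at 10.4 in drug and 36.7 in control, opposite to SDHAP2. SEPTIN7 was at 90.1 in drug and 91.5 in control, and STAG3 at 52.9 in drug and 54.0 in control.

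Pseudogene peaks found in 1 list alone mostly had low scores, as did those of all promoters. The drug list had 10 pseudogene peaks without a control peak, where 97.6% of all drug promoter peaks had one. Their median score was 24.0, and over all drug promoter peaks without a control peak it was 26.0. The strongest were the zinc finger copy LOC728743 with a score of 40, LOC388242 with 37, and CCDC144CP, PSG10P and DPY19L2P2 with 26 each. RefSeq lists LOC728743 as protein coding, and likewise LOC100133315, which was also among the 10 with a score of 22. The control list had 49 without a drug peak, where 74.4% of all control promoter peaks had one. Their median score was 64.0, and over all control promoter peaks without a drug peak it was 79.0. The strongest was ZNF321P on chromosome 19 with a score of 242, above the median of 237 for all control pseudogene promoter peaks. It was followed by REXO1L2P with 167, the nucleolar gene copy NOC2LP2 with 146 and MST1P2 with 139. SCAND2P and the DNA repair gene copy RDM1P5 scored 129 each. At such scores a missing peak cannot be told apart from a limit of detection, since the depth was unknown.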

How the data were processed

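CUT&Tag peaks of 1 drug library and 1 control library of PLC8024 cells were used, grouped by sample title. Per the file headers, the authors called narrow peaks per library with MACS2 and annotated them with HOMER against hg38, the build that the submitters' processing notes also name. The deposited measurement is a peak score. In usual MACS2 output it is −log10 of the q-value multiplied by 10, and the lowest was 13. The authors' distance from the annotated start, in bp, was deposited beside it and used as given. Aligner, versions, depth and the use of IgG in peak calling are not given in the sources used here. Peak numbers, widths and scores can all differ because one library was sequenced more deeply. The IgG and Pol II groups of the design text were not analysed here, and 1 emptied line of the control list was left out.

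Overlap needed 1 bp. Shares carry exact Clopper-Pearson 95% intervals, and differences weighted over 10 bins of control promoter score carry normal intervals, all for counting error only. No test between drug and control was possible, as each has 1 library. Copies were aligned globally with Biopython 1.88, and tables were computed with pandas 2.3.3 and SciPy 1.17.1. The overlap and weighting steps were tested on simulated data. Gene biotypes, start sites and promoter windows came from RefSeq tables of GRCh38.p14. The identifiers of all 169 drug peaks were found there.

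The members, the symbol lists and the tests were chosen with earlier results of these data known. Named pseudogenes were the 12 strongest per list, the 6 strongest per list without an overlap, up to 4 per symbol list and up to 6 with a parent. Families of copies, percentiles, shared starts by name and the parents of higher-ranked copies were chosen with the data already seen, and genes named there were chosen after their values were seen. Alternatives were other overlap rules, a score of at least 50, lists of equal length, merged peaks closer than 500 bp, chromosomes 1 to 22 and X, other windows, 20 bins, and the removal of repeats, families or chromosome 15.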

Additional observations from a re-analysis of the deposited data

How the results depend on the processing

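The share of control pseudogene promoter peaks overlapped by a drug peak, 73.2%, was 82.0% for peaks with a score of at least 50 and 84.6% with the control list cut to as many peaks as the drug list, and it lay between 67.8% and 77.8% under the other overlap rules, merging and windows. The drug share of 94.1% was 100% for the 132 peaks with a score of at least 50. Weak peaks are removed by both settings. The number of pseudogenes named in both lists, 118, was 391 when peaks of any annotation class were counted, which takes in more peaks by construction. The score-weighted difference of 6.69 points between pseudogene and coding overlap reversed to −2.62 points without weighting, since pseudogene peaks have lower control scores. The share of 17.9% that ranked at least 20 points higher in drug was 11.2% without families of 3 or more, and 12.7% with percentiles among shared peaks of every class. The authors' detailed annotation gave no member a repeat class, so leaving out repeats removed none. No paired analysis was possible because each group has 1 library, and no replicate could be left out for the same reason. Depth, which the files do not give, limits what a missing drug peak shows.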

Other observations

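LOC389765, described as a pseudogene of the kinesin KIF27, had a promoter peak on chromosome 9 with a score of 34 in drug and 106 in control. It was picked out after its values were seen, because the series concerns the kinesin KIF11.

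A few pseudogenes had more than 1 promoter peak, 8 genes in the drug list and 6 in the control list. REXO1L2P, a member of a tandem array of exonuclease-like copies, had 0 promoter peaks in drug and 3 in control, with control scores of 167, 47 and 31. MSTO2P had 2 promoter peaks in control. The one at MSTO2P itself scored 1479, and the other, with 1234, lay 69 bp from the start of the parent MSTO1, where the drug peak scored 491 and was annotated to a non-coding transcript of MSTO2P.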
